A study of Mus musculus with 6 samples.

Results

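Alpha-1-antitrypsin is encoded in the mouse by a family of near-identical genes, and 5 of them, Serpina1a, Serpina1b, Serpina1c, Serpina1d and Serpina1e, were followed here in hepatocytes with and without FOXA2. They were chosen by symbol, as the rows of the deposited tables whose Ensembl identifier maps to one of these names, which gave 5 of 34745 genes. All 5 passed the filter on low counts that left 14417 genes for testing. The rule uses no measured value.

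RNA-seq was performed on primary hepatocytes from FOXA2-floxed (FOXA2f/f) male mice, 12 weeks old, that had received carbon tetrachloride (CCl4), a hepatotoxin that produces liver fibrosis. Both groups carried the floxed Foxa2 alleles in every cell and both received an adeno-associated virus of serotype 8 (AAV8) whose cargo is driven by the hepatocyte-active TBG promoter. The control group, FOXA2f/f+CCl4 (3 libraries), received the control virus, and the FOXA2H-KO+CCl4 group (3 libraries) received the virus with Cre, so that Foxa2 was to be deleted in hepatocytes alone. Virus was given 2 weeks before the first CCl4 dose, CCl4 was given 2 times a week for 4 weeks at 0.25 ml/kg, and livers were taken on day 3 after the last dose. Hepatocytes were obtained by collagenase perfusion. No group without CCl4 was part of these data, so each comparison below is between fibrotic livers. The labels number the libraries 1, 2 and 4 in both groups and do not say how they relate to animals, so p-values measure the spread between these libraries.

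Alpha-1-antitrypsin is a serpin, a protease inhibitor that hepatocytes make in large amounts and secrete into the blood. It presents an exposed loop, the reactive centre loop, to neutrophil elastase and related proteases, and when the protease cuts the loop the inhibitor changes shape and traps it. Humans have a single gene for it, whose inherited deficiency leads to lung and liver disease, whereas mice have several copies that differ in this loop. FOXA2, together with HNF1 and other liver-enriched factors, binds promoters and enhancers of genes for secreted liver proteins.

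The 5 genes lie in 1 cluster on the minus strand of chromosome 12 (GENCODE M21 annotation, GRCm38), Serpina1b at chr12:103728156-103830373, Serpina1d at chr12:103763594-103773592, Serpina1a at chr12:103853589-103863562, Serpina1c at chr12:103894926-103904887 and Serpina1e at chr12:103946931-103958975. Annotated pseudogenes, Gm8893 included, lie among them. The annotated span of Serpina1b takes in that of Serpina1d because a transcript model of Serpina1b starts far upstream. Each gene has a transcript of 5 exons with a coding sequence of 1242 bases. Any pair of coding sequences was 96.3% to 98.47% identical, and 86 of the 1242 positions (6.92%) differed among the 5. In an 81-base stretch of exon 5 that takes in the reactive centre loop, 18 positions (22.22%) differed. The stretch runs on through a conserved proline and phenylalanine after the loop, so this count is not that of the loop alone. These stretches are shown because this loop is what the inhibitor presents to its target protease. They are written 5′ to 3′ on the coding strand, with capitals at the positions that differ among the 5, and lie in coding exon 5 at chr12:103853750-103853830 (Serpina1a), chr12:103728317-103728397 (Serpina1b), chr12:103895087-103895167 (Serpina1c), chr12:103763755-103763835 (Serpina1d) and chr12:103947093-103947173 (Serpina1e).
Serpina1a: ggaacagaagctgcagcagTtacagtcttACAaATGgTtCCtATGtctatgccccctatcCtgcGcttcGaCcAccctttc
Serpina1b: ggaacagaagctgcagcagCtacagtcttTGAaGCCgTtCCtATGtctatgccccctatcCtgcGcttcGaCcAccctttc
Serpina1c: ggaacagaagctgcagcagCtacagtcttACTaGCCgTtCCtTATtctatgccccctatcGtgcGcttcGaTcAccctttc
Serpina1d: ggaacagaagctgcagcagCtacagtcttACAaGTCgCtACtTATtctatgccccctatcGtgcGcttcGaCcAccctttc
Serpina1e: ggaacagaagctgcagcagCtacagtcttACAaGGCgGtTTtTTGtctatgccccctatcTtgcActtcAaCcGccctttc

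The promoters were also alike. Within the 250 bases before the RefSeq start (GRCm38.p6), the word TGTTTGC, a forkhead-type sequence, was found in all 5 promoters and in 4.3% of 32851 mouse promoters searched on both strands. The word GTTAAT, which is part of the sequence that HNF1 binds, was also found in all 5 and in 6.43% of promoters. Another forkhead-type word, TGTTTAC, was found in none of the 5 and in 3.17% of promoters. The first 2 words do not overlap each other and stand in the same stretch of 108 bases, in which 10 positions differ among the paralogs. The stretch of each paralog is shown, 5′ to 3′ in the direction of transcription, because the floxed gene encodes a forkhead factor. Capitals mark both words. A match is a description of the letters and not a binding site. The stretches lie on the minus strand at chr12:103863625-103863732 (Serpina1a), chr12:103738200-103738307 (Serpina1b), chr12:103904962-103905069 (Serpina1c), chr12:103773634-103773741 (Serpina1d) and chr12:103956960-103957067 (Serpina1e).
Serpina1a: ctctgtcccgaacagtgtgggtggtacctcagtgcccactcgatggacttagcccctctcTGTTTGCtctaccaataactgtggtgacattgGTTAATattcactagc
Serpina1b: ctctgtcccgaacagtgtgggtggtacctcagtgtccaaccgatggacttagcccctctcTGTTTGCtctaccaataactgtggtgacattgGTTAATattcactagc
Serpina1c: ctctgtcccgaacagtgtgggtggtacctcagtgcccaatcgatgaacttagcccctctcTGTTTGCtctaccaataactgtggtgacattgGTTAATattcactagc
Serpina1d: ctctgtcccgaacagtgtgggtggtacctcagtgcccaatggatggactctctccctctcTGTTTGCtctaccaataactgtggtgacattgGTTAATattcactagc
Serpina1e: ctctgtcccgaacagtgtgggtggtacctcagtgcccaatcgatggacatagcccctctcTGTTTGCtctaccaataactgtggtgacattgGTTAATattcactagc
The TGTTTGC word began 48 (Serpina1d) to 59 (Serpina1c) bases before the annotated start in 4 genes and 110 bases before it in Serpina1e.

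Because the copies are so alike, a read cannot always be assigned to 1 of them, and how reads that fit several genes were counted is not given in the sources used here. Of all 100-base windows of the 5-exon transcript, the share found in no transcript of another gene was 81.8% for Serpina1e, 73.6% for Serpina1b, 70.7% for Serpina1d, 39.0% for Serpina1a and 30.7% for Serpina1c. Serpina1a and Serpina1c are the closest pair and shared 732 windows with each other. The share of windows that differed by more than 2 bases from every transcript of the other genes of the family was 48.4% for Serpina1d, 37.8% for Serpina1e, 36.6% for Serpina1b, 15.1% for Serpina1c and 3.97% for Serpina1a. With 50-base windows this share was 18.1%, 11.8%, 8.7%, 6.33% and 0.0% in the same order. Unlike the exact search, it compared transcripts in their own direction only, so matches to an antisense transcript did not lower it. Serpina1a and Serpina1c were thus the least specific of the 5 by both measures, whereas the most specific was Serpina1e for exact matches and Serpina1d where mismatches are tolerated. Serpina1c also overlaps an antisense gene, B430119L08Rik, over 31.5% of its exonic bases, and the library kit does not mark strand. B430119L08Rik had 61 to 262 counts a library.

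The 6 libraries held between 20983455 and 28327765 counts. Foxa2 was measured first as a check of the labels, with 442, 246 and 516 counts in the control libraries and 28, 19 and 35 in FOXA2H-KO. Its log2 fold change was -3.85 (SE 0.31), with an edgeR adjusted p of 0.0313, and it was the 1 gene called of all 14417 tested (0.00694%), where called means an adjusted p under 0.05 and a difference of at least 2-fold. Levels are given in CPM, counts scaled to a common library size with edgeR's TMM factors. Summed levels of markers of other cells overlapped between the groups, for example 174 to 367 CPM against 252 to 707 for 5 cholangiocyte markers, 533 to 2550 against 1154 to 1919 for 9 macrophage markers, 886 to 2413 against 1424 to 2460 for 9 stellate cell and fibroblast markers and 4.06 to 72.4 against 7.08 to 13.4 for 5 neutrophil markers, control against FOXA2H-KO. All 5 cholangiocyte markers had a log2 fold change above 0 (median 0.91), Spp1 making up most of their sum. Krt19 and Krt7 were higher in every FOXA2H-KO library than in any control (edgeR adjusted p = 0.941 each), which 4.54% of all genes were. Both were at low levels, and the groups almost met. The highest control and lowest FOXA2H-KO library had 1.42 and 1.44 CPM for Krt19 and 1.21 and 1.36 CPM for Krt7. The 8 endothelial markers summed to 197 to 723 against 415 to 445 CPM and 5 lymphocyte markers to 1.26 to 5.63 against 2.64 to 5.63 CPM. No marker tested was at 0 in all 6 libraries, and the 8 hepatocyte markers summed to 111717 to 160340 against 107913 to 133284 CPM. Their part in the results below was not tested. In these bulk samples fewer cells of a type and less RNA per cell cannot be told apart. FOXA2H-KO replicate 4 stood apart in 1 of the paralogs and control replicate 2 in genes of the endoplasmic reticulum described at the end. Log2 fold changes and shares that rest on either are given with and without it. Correlations between genes were computed over all 6 libraries only.

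The 5 paralogs together made up more than 1% of the counted reads in every library. Their summed count took 1.20%, 1.22% and 1.15% of all counts in control replicates 1, 2 and 4, and 1.10%, 1.39% and 2.01% in FOXA2H-KO replicates 1, 2 and 4. Set against albumin, the main protein of blood plasma, the summed count was 0.117, 0.113 and 0.116 of the Alb count in control libraries and 0.117, 0.129 and 0.182 in FOXA2H-KO. FOXA2H-KO replicate 4 was the highest by both measures and the other 5 libraries lay close together. In CPM, the sum was 13208, 14016 and 10353 in control and 9759, 13662 and 20229 in FOXA2H-KO libraries, or 12526 ± 1925 against 14550 ± 5291 (SD, n = 3 each). The groups overlapped, and FOXA2H-KO held both the lowest and the highest library. The log2 fold change of the sum was 0.22 (SE 0.36), with an edgeR adjusted p of 0.987. Without FOXA2H-KO replicate 4 it was -0.0872, so the direction of the sum rested on that library. For the sum of the 4 paralogs other than Serpina1e it was 0.05 (adjusted p = 0.998).

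None of the 5 paralogs was called, against 0.00694% of all genes. Serpina1e alone had an unadjusted p under 0.05, which 5.17% of all genes had (1.98% higher and 3.18% lower in FOXA2H-KO), and it alone had higher CPM in every FOXA2H-KO library than in any control library, which 4.54% of all genes had. No paralog was lower without overlap, against 5.96% of all genes. DESeq2 and limma on log2(FPKM + 1) also called none of the 5 and also gave an unadjusted p under 0.05 for Serpina1e alone. The log2 fold change was above 0 for 4 paralogs and below 0 for 1, with a median of 0.20, against -0.01 over all genes.

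Serpina1b had the most counts. Its CPM was 6656, 6487 and 4806 in control and 4197, 6382 and 8404 in FOXA2H-KO libraries. Both the lowest and the highest value were in FOXA2H-KO, and the log2 fold change was 0.08 (SE 0.33, edgeR adjusted p = 0.993). It was -0.05 without control replicate 4 and -0.17 without FOXA2H-KO replicate 4, so no direction can be given.

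Serpina1a, the closest relative of Serpina1c in sequence, had 2719, 2934 and 2183 CPM in control and 2755, 2811 and 3431 CPM in FOXA2H-KO libraries. The groups overlapped on this scale, with a log2 fold change of 0.20 (SE 0.23, edgeR adjusted p = 0.983). It was 0.10 without FOXA2H-KO replicate 4 and 0.09 without control replicate 4. On the deposited FPKM values, which divide by gene length and total count but do not adjust for library makeup, the same gene was at 1003, 1034 and 984 in control and 1255, 1161 and 1381 in FOXA2H-KO libraries. Here the groups did not overlap (exact permutation p = 0.1, two-sided, the smallest that 3 against 3 can give), and the log2 fold change was 0.33 (limma adjusted p = 0.794). The share of all genes without overlap on the FPKM scale was not computed, so this has no background to be set against. Over all genes, the median log2 fold change was -0.01 with TMM scaling and 0.10 on library size alone, which is how FPKM is scaled.

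Serpina1d was the 1 paralog with a negative log2 fold change. Its CPM was 2951, 3450 and 2464 in control and 1700, 2820 and 3234 in FOXA2H-KO libraries, so that replicate 1 of FOXA2H-KO was the lowest of the 6 and the rest overlapped. The log2 fold change was -0.19 (SE 0.30, edgeR adjusted p = 0.983), and 0.0345 without FOXA2H-KO replicate 1.

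Serpina1c had the fewest counts, with 117, 182 and 143 CPM in control and 136, 182 and 258 CPM in FOXA2H-KO libraries. The groups overlapped. The log2 fold change was 0.38 (SE 0.26, edgeR adjusted p = 0.983), and 0.12 without FOXA2H-KO replicate 4. Reads of Serpina1c that also fit Serpina1a or the antisense gene cannot be told apart in these counts.

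Serpina1e differed most in size. It had 17812, 17531 and 23830 counts in control and 26401, 36631 and 105948 counts in FOXA2H-KO libraries, which is 765, 961 and 757 CPM against 971, 1469 and 4900 CPM. FOXA2H-KO replicate 1 lay just above the highest control library, replicate 2 above it by more than the range of the controls, and replicate 4 far above all others. The means were 828 ± 116 and 2447 ± 2139 CPM (SD, n = 3 each), a ratio of 2.96, and the coefficient of variation was 14.0% in control and 87.4% in FOXA2H-KO libraries. The log2 fold change was 1.56 (SE 0.57), with an unadjusted edgeR p of 0.0256 and an adjusted p of 0.853, and the exact permutation p was 0.1, the smallest possible. Without FOXA2H-KO replicate 4 the log2 fold change was 0.57, with an adjusted p of 1.0, and with either other FOXA2H-KO library left out it was 1.94 or 1.83. The difference was in the same direction in every setting tried and passed the adjusted threshold in none, the lowest adjusted p being 0.14 with DESeq2. The promoter stretch of Serpina1e holds the same 2 words as those of the other paralogs.

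**Figure D1:**
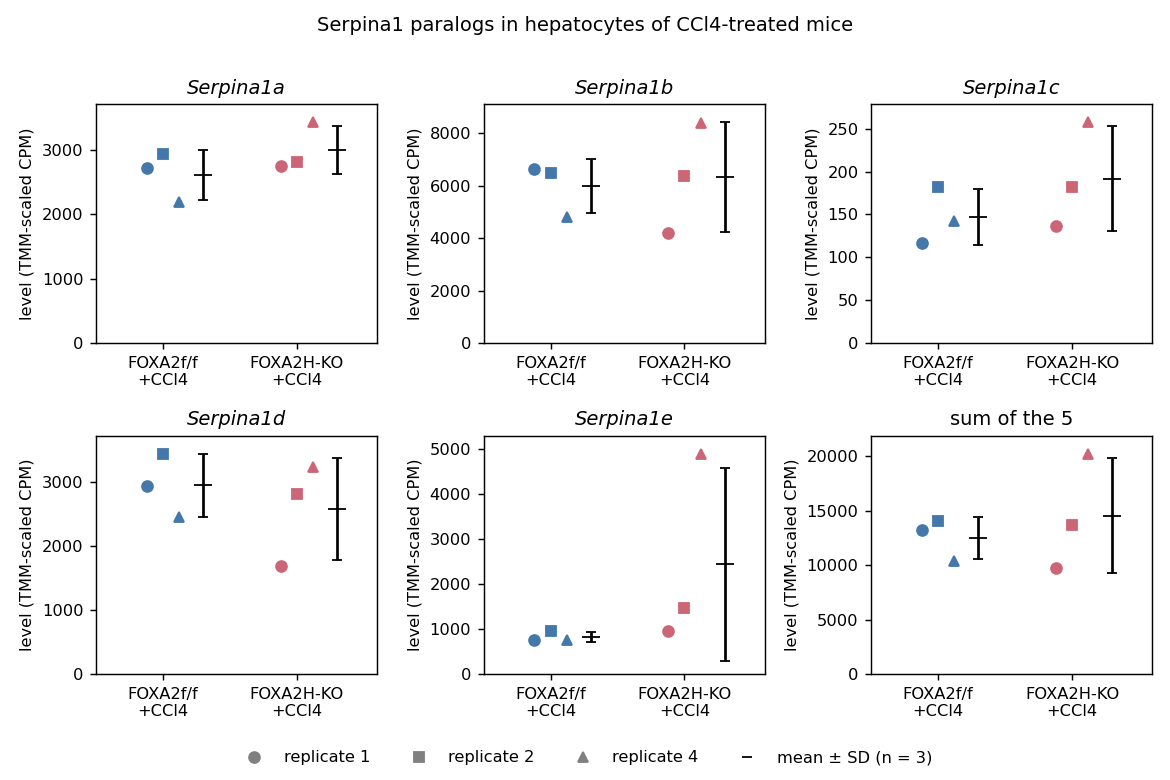
Level of each Serpina1 paralog and of their sum, in TMM-scaled CPM on axes that start at 0, in 3 FOXA2f/f+CCl4 (blue) and 3 FOXA2H-KO+CCl4 libraries (red). Symbols give the replicate number and black bars the mean ± SD of n = 3. Groups overlap in each panel except that of Serpina1e, where replicate 4 of FOXA2H-KO reached 4900 CPM.

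**Figure D2:**
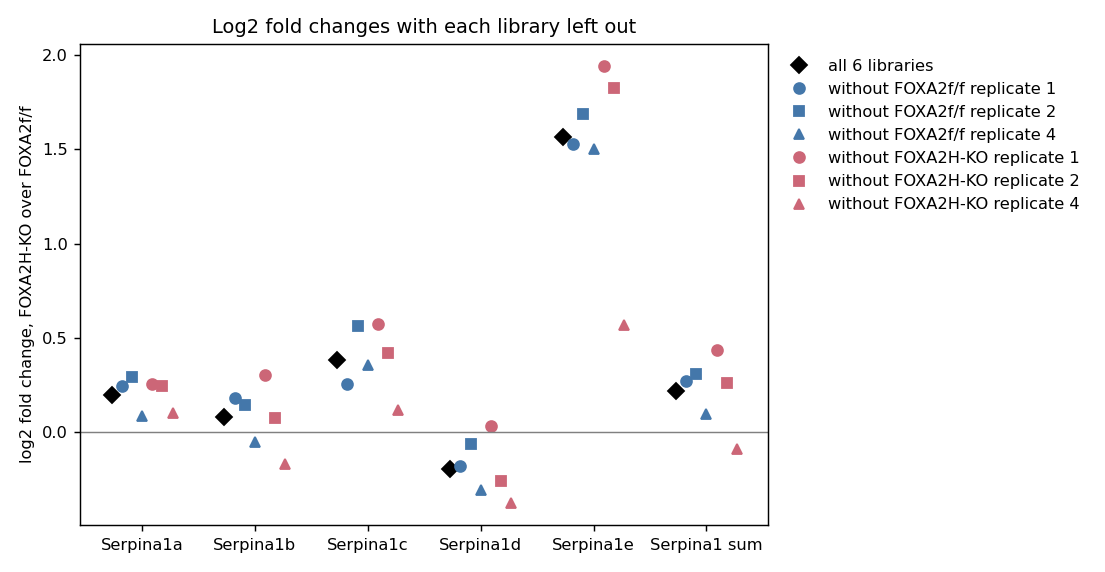
Log2 fold change of each paralog and of their sum, FOXA2H-KO over FOXA2f/f, in the edgeR fit of all 6 libraries (black diamonds) and with each library left out in turn (blue for a control, red for a FOXA2H-KO library). Serpina1e stayed above 0 and spanned 0.57 to 1.94, whereas Serpina1b, Serpina1d and the sum crossed 0.

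FOXA2H-KO replicate 4 was compared with the mean of the other 5 libraries on the log2 CPM scale, for the 8295 genes whose mean reached 10 CPM. Serpina1e was 5.13-fold higher in this library, 8 genes were higher by more than this and 4 were lower by more. The other paralogs were 1.29-fold (Serpina1a), 1.50-fold (Serpina1b), 1.72-fold (Serpina1c) and 1.24-fold (Serpina1d) higher. The 8 higher genes, named after their values were seen, were Cyp4a14, Cyp4a10 and Cyp4a31, which are fatty acid hydroxylases, Cyp17a1, a steroid-synthesis enzyme, Sult1e1, which sulfates oestrogens, Vnn1, a pantetheinase, Mup7, a major urinary protein, and Serpina4-ps1. The 4 lower genes, also named after their values were seen, were Cyp2a5 and Cyp3a11, which are drug-metabolising enzymes, Gstm3, a glutathione transferase, and Pls1, an actin-bundling protein. Cyp3a11, a hepatocyte marker, was at 457 CPM in FOXA2H-KO replicate 4 and 4447 to 12089.6 CPM in the other libraries. Cyp4a14 had 270 CPM in FOXA2H-KO replicate 4 and 1.46 to 14.3 CPM in the other libraries. Other genes of the 8 were also high in another library. Mup7 had 3989 CPM in FOXA2H-KO replicate 4 and 3162 in replicate 1, and Vnn1 48.9 and, in replicate 2, 29.4. Against the mean of the other 5 libraries, FOXA2H-KO replicate 4 thus stood apart in genes of other families by more than it did in Serpina1e. The part of that in the Serpina1e value was not tested.

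Serpina4-ps1, annotated as a pseudogene of a related serpin, is a neighbour in the same gene cluster. It had 189, 142 and 91 counts in control and 315, 185 and 1850 counts in FOXA2H-KO libraries, and was 12.2-fold higher in replicate 4 of FOXA2H-KO than in the other 5. Of the genes between it and Serpina1e, Serpina11 was 1.12-fold and Serpina12 0.754-fold the mean of the other libraries, and Serpina6, the gene of corticosteroid-binding globulin on the far side of the paralogs, was 0.397-fold. Serpina3k and Serpina3m, farther along, were 1.49-fold and 1.42-fold that mean, but neither was highest in this library. Serpina3k had 7024 CPM there and 9223 in control replicate 2, and Serpina3m 689 there and 734 in control replicate 1. Serpina6 and Serpina11 were named after their values were seen.

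**Figure D3:**
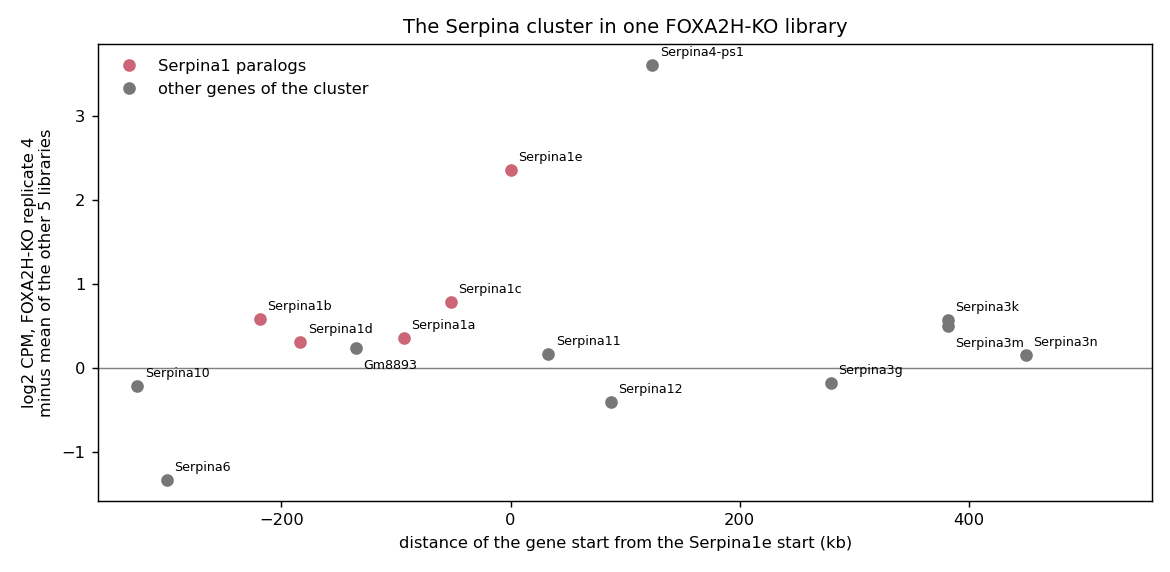
Log2 CPM in FOXA2H-KO replicate 4 minus the mean of the other 5 libraries, for genes of the Serpina cluster with a mean of at least 10 CPM, by the distance of the gene start from that of Serpina1e in kb. Red points are the Serpina1 paralogs and grey points other genes, with Serpina1e at 2.36 and Serpina4-ps1 at 3.61. The annotation gives Serpina3k and Serpina3m the same start.

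Levels can be ordered only per length. By the deposited FPKM, the medians over the 6 libraries were 2085 for Serpina1b, 2011 for Serpina1d, 1097 for Serpina1a, 532 for Serpina1e and 116 for Serpina1c. The ranges of Serpina1b (1681 to 2974) and Serpina1d (1370 to 2302) overlapped, as did those of Serpina1d and Serpina1a (984 to 1381), and Serpina1e reached from 383 to 2677. The mean of Serpina1e was 435 ± 45.3 against 1007 ± 25.7 for Serpina1a in control libraries and 1367 ± 1140.0 against 1266 ± 111 in FOXA2H-KO libraries (FPKM, SD, n = 3 each). This change in the order of the means rested on FOXA2H-KO replicate 4. In that library alone, Serpina1e (2677) was above Serpina1a (1381) and above Serpina1d (2302). In FOXA2H-KO replicates 1 and 2 Serpina1e was below Serpina1a (601 against 1255 and 823 against 1161), as in every control library. The order also depends on the length used. FPKM implied lengths of 2465 and 2804 bases for Serpina1a and Serpina1b, which exceed their 5-exon transcripts of 1360 and 1394 bases, but 1394 for Serpina1d, the same as its transcript. With CPM on the total count divided by the length of the 5-exon transcript in kilobases, the medians were 4194 for Serpina1b, 2011 for Serpina1d, 1989 for Serpina1a, 746 for Serpina1e and 116 for Serpina1c. On this scale Serpina1b (3381 to 5982) lay above the whole range of Serpina1d, and Serpina1d and Serpina1a overlapped. The FOXA2H-KO mean of Serpina1e (1917) was here below that of Serpina1a (2294). Serpina1c was lowest by either length (78.4 to 188 FPKM).

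The makeup of the summed count showed 2 differences in which the groups did not overlap. Serpina1e made up 5.79%, 6.86% and 7.32% of the sum in control and 9.95%, 10.8% and 24.2% in FOXA2H-KO libraries. Every FOXA2H-KO library was above every control. The means were 6.66% ± 0.78 and 15.0% ± 8.02 (SD, n = 3 each), a difference of 8.32 percentage points (exact permutation p = 0.1, two-sided, 0.25 after Benjamini-Hochberg adjustment over 5 shares), and 3.70 points without FOXA2H-KO replicate 4. Serpina1d made up 22.3%, 24.6% and 23.8% in control and 17.4%, 20.6% and 16.0% in FOXA2H-KO libraries, every FOXA2H-KO library being below every control. The difference was -5.57 points (23.6% ± 1.16 against 18.0% ± 2.38, exact permutation p = 0.1, adjusted 0.25), and -4.56 points without FOXA2H-KO replicate 4. With 3 libraries against 3 neither can reach 0.05.

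Shares add up to the whole, so that a larger share of 1 paralog lowers the others. With Serpina1e taken out, Serpina1d was still lower, at 23.7%, 26.4% and 25.7% of the other 4 in control and 19.3%, 23.1% and 21.1% in FOXA2H-KO libraries (exact permutation p = 0.1, adjusted over 4 shares 0.2). Serpina1c then made up 0.942%, 1.40% and 1.49% against 1.55%, 1.49% and 1.68%, without overlap (exact permutation p = 0.1, adjusted 0.2), though its highest control and lowest FOXA2H-KO library were almost equal. The other shares overlapped. Serpina1b made up 46.3% to 50.4% of the full sum in control and 41.5% to 46.7% in FOXA2H-KO libraries, and Serpina1a 20.6% to 21.1% in control and 28.2%, 20.6% and 17.0% in FOXA2H-KO replicates 1, 2 and 4. The share of Serpina1a was thus even across controls and spread in both directions in FOXA2H-KO.

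**Figure D4:**
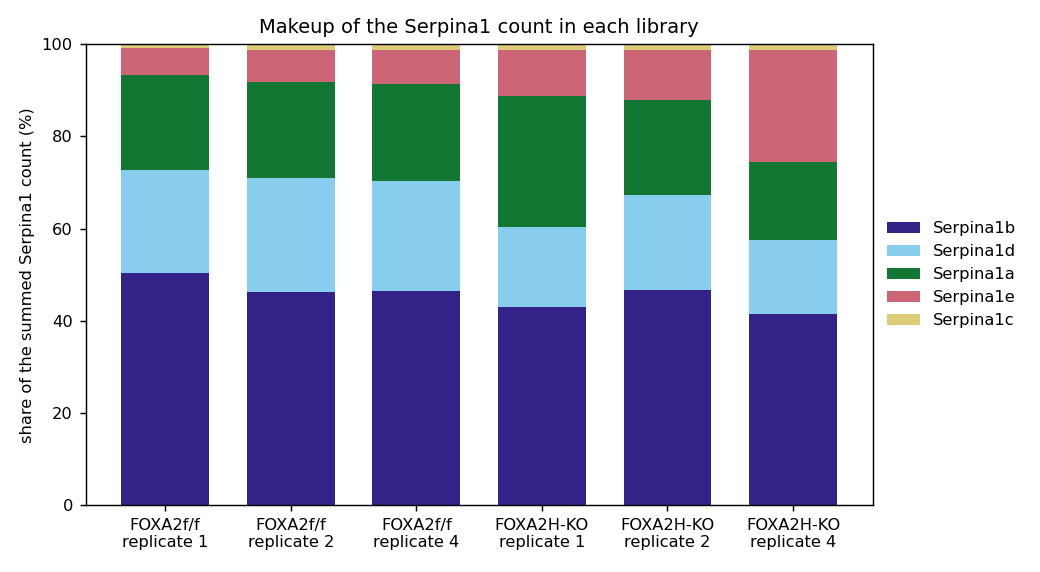
Share of each paralog in the summed Serpina1 count, in percent, stacked to the whole in each of the 6 libraries. The Serpina1e segment is larger in every FOXA2H-KO library than in any FOXA2f/f library and the Serpina1d segment smaller.

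Over the 6 libraries, log2 CPM of Serpina1c and Serpina1e varied most alike (Pearson r = 0.893), followed by Serpina1b and Serpina1d (r = 0.873), and Serpina1d and Serpina1e least (r = 0.341). These are descriptions over n = 6 libraries that share their scaling, and reads shared between paralogs also enter them. Among 8290 other genes with a mean of at least 10 CPM, the pattern most like the sum was that of Pdcd6, a calcium-binding protein (r = 0.995), followed by Paip1, Akap11, Fbxw2 and Gabarapl2. For Serpina1d it was Chchd2, a mitochondrial protein (r = 0.986), then Serpina3k (r = 0.984), an abundant serpin of the same cluster, and Atp5g2. For Serpina1e it was Mib1 (r = 0.997), Slc7a2, a transporter of basic amino acids (r = 0.989), and Aass, an enzyme of lysine breakdown (r = 0.985). Like Serpina1e and Serpina1c, Mib1, Slc7a2 and Aass were highest in FOXA2H-KO replicate 4. Aass was there at 510.1 CPM against 273 to 360.3 in the other 5, and Mib1 at 110.2 CPM against 92.35 to 98.05. No correlation was computed without that library, so how far these values rest on it was not tested. The nearest were Abhd13, Smarca5 and Fpgs for Serpina1a, Mcrip2, Gle1 and Tmem134 for Serpina1b, and Klf3, Shb and Foxo1 for Serpina1c.

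The rest of the serpin family gave the surroundings of these values. Of 16 tested neighbours in the Serpina cluster, 5 had a log2 fold change above 0 and 11 below, with a median of -0.16 (-0.28 without control replicate 2), and none was called. Unadjusted edgeR p was under 0.05 for Serpina4-ps1 (log2 fold change 2.48, and 0.62 without FOXA2H-KO replicate 4). It was also under 0.05 for Serpina12 (-1.13, and -0.42 without control replicate 2). The most abundant neighbours, Serpina3k, Serpina3n and Serpina3m, had log2 fold changes of -0.37, -0.55 and -0.23, with edgeR adjusted p of 0.983, 0.964 and 0.988. These log2 fold changes were -0.73, -0.76 and -0.51 without FOXA2H-KO replicate 4. Without control replicate 2 they were 0.03, -0.67 and -0.18, so the direction of Serpina3k rested on that library. The pseudogene Gm8893, which shares windows with each paralog, had 2650, 1692 and 2278 counts in control and 5556, 3144 and 2931 in FOXA2H-KO libraries. FOXA2H-KO replicate 1 held the most. Serpina1f, the next copy in the row, had 0 counts in 5 libraries and 2 in the other.

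Among 10 other secreted serpins of the liver, 3 were above 0 and 7 below, with a median log2 fold change of -0.11, which was 0.02 on library size alone and -0.06 without control replicate 2, and none was called. Serpina7, thyroxine-binding globulin, was at 5.86 ± 1.70 CPM in control and 17.1 ± 6.38 CPM in FOXA2H-KO (SD, n = 3 each), without overlap, with a log2 fold change of 1.54 and an edgeR adjusted p of 0.579. Serpine2, an inhibitor of thrombin, had a log2 fold change of 0.98 (adjusted p = 0.836). The abundant members, antithrombin (Serpinc1), heparin cofactor (Serpind1) and antiplasmin (Serpinf2), had log2 fold changes of -0.42, -0.19 and -0.39. These were -0.26, -0.03 and -0.42 without control replicate 2. In this list 2 genes, Serpina7 and Serpine2, were higher in FOXA2H-KO without overlap, against 4.54% of all genes. Another 3, Serpinc1 and Serpinf2 among them, were lower without overlap, against 5.96% of all genes.

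Of the elastase-type proteases that alpha-1-antitrypsin inhibits, 2 of 3 were tested. Elane, neutrophil elastase, was at 4.84 ± 5.30 CPM in control and 0.412 ± 0.071 in FOXA2H-KO libraries (SD, n = 3 each), and Prtn3, proteinase 3, at 8.83 ± 9.02 and 2.54 ± 1.27. The groups overlapped for both, and the log2 fold changes of -3.55 and -1.81 had edgeR adjusted p of 0.762 and 0.944. Of the 5 neutrophil markers tested, Elane among them, 4 were lower in FOXA2H-KO with an unadjusted edgeR p under 0.05, against 3.18% of all genes. None was called, and the groups overlapped for each. Their summed level was 4.06 CPM in control replicate 2, below every FOXA2H-KO library (7.08 to 13.4 CPM), so the difference rested on the other control libraries.

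Other plasma protease inhibitors (16 tested, 6 above and 10 below 0) had a median log2 fold change of -0.05, which was -0.05 to 0.06 over the scalings and -0.09 without control replicate 2. Of these, Spink1 (log2 fold change 1.31, edgeR adjusted p = 0.65) and Mug2 (-0.78, adjusted p = 0.672) had the smallest p. Ahsg, Pzp and Mug1, the most abundant, had log2 fold changes of -0.13, 0.14 and 0.05. Acute phase proteins, among which alpha-1-antitrypsin is counted in humans, numbered 18, with 4 above and 14 below 0 and a median of -0.25, which was -0.13 on library size alone, -0.06 on FPKM and -0.44 without control replicate 2. C3, Hpx and Fga had log2 fold changes of -0.08, -0.45 and -0.37, and Saa3 had 1.00 (adjusted p = 0.853). The 12 abundant plasma proteins had a median of -0.11, which was 0.03 on library size alone and 0.02 without control replicate 2, and Alb had a log2 fold change of -0.12.

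Genes for folding, export and disposal of secreted glycoproteins, the route that alpha-1-antitrypsin takes through the endoplasmic reticulum, numbered 27, of which 4 were above and 23 below 0, with a median of -0.18. The median was also below 0 under the other scalings (-0.16 to -0.05), while the median of all genes was at 0.10 on library size alone. Control replicate 2 held the highest level of 26 of the 27, against 29.7% of all genes tested, and without it the median was 0.01. None of the 27 was called. The chaperones Hspa5, Calr and Pdia3 had log2 fold changes of -0.35, -0.37 and -0.35 (edgeR adjusted p of 0.983, 0.964 and 0.983), and -0.03, -0.13 and -0.06 without control replicate 2. Syvn1 and Derl2, which serve the disposal of misfolded proteins, had -0.59 and -0.76 (adjusted p of 0.811 and 0.915), and -0.51 and -0.35 without that library. These 2 of the 27 were lower with an unadjusted edgeR p under 0.05, against 3.18% of all genes. With them, 3 of the 27 were lower without overlap, against 5.96% of all genes.

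Among 17 liver-enriched transcription factors, 8 were above and 9 below 0, with a median log2 fold change of -0.00, which was 0.13 on library size alone, and Foxa2 was the 1 called. Hnf4a, a central regulator of hepatocyte genes, was at 564 ± 50.7 and 539.5 ± 42.7 CPM (SD, n = 3 each), with a log2 fold change of -0.06 (edgeR adjusted p = 0.992). Cebpa had -0.00 and Stat3 -0.34. Prox1 was at 77.4 ± 31.7 CPM in control and 152 ± 32.7 CPM in FOXA2H-KO, without overlap (log2 fold change 0.98, adjusted p = 0.771).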

How the data were processed

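Paired-end libraries (TruSeq RNA kit, which does not mark strand) were sequenced by the authors. Per the labels, the processing tools included CASAVA 1.8, TopHat2 2.1.0, HTSeq and edgeR, and the build was mm10. Annotation, strand setting and handling of multiply mapping reads are not given in the sources used here. The authors deposited whole-number counts per gene, without normalization, and FPKM values. The deposited FPKM equal the count over a gene length and the total count (relative spread up to 8.9e-06 over 9339 genes).

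Counts were analysed with edgeR 4.0.16 in R 4.3.3 (TMM, filterByExpr, quasi-likelihood test without a replicate block, Benjamini-Hochberg over 14417 genes). A gene was called at an adjusted p under 0.05 and at least 2-fold. Levels and shares of 1 gene were compared between 3 and 3 libraries by an exact permutation test, two-sided. Total counts were 20983455 to 28327765, and no 2 replicates were near-identical (chi-square 27.6 to 94.0 per degree of freedom). Groups and replicate numbers come from the sample titles. Alternatives were library size alone, upper quartile, DESeq2 1.42.0, no filter, at least 10 counts in every library, limma 3.58.1 on log2(FPKM + 1) at a mean FPKM of at least 1, the replicate block, and each library left out. Calls were also made without the fold threshold, and shares were also taken from the summed FPKM. Limma-voom with quality weights, the sum without Serpina1e and shares per transcript length were added after seeing the data. The fits were tested on simulated data. The members, gene lists and rules were chosen with earlier results of these data known. Of each of the 8 context lists, at most the 3 most abundant genes and the 2 with the smallest p were named. Exceptions were Serpina1f and the genes marked as named after their values were seen. Genes most alike in pattern were the 5 (sum) or 3 (each paralog) with the highest correlation of log2 CPM (prior count 2). Positions and transcripts are GENCODE M21, and promoters are RefSeq. The coding sequences were translated to place the loop stretch, and no protein sequences are shown.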

Additional observations from a re-analysis of the deposited data

How the results depend on the processing

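No Serpina1 paralog was called under any of 15 alternatives. The Serpina1e log2 fold change (1.56) was above 0 in all 14 of its alternatives, from 0.57 without FOXA2H-KO replicate 4 to 1.94 without FOXA2H-KO replicate 1, and an unadjusted p under 0.05 was lost with the replicate block and without FOXA2f/f replicate 1, FOXA2f/f replicate 4 or FOXA2H-KO replicate 4. With each library left out in turn, the log2 fold change of Serpina1b ran from -0.17 to 0.31 and was negative without FOXA2f/f replicate 4 (-0.0548) or FOXA2H-KO replicate 4 (-0.17), that of Serpina1d from -0.38 to 0.03 and was positive without FOXA2H-KO replicate 1 (0.0345), and that of the sum from -0.09 to 0.44 and was negative without FOXA2H-KO replicate 4 (-0.0872). The difference in the Serpina1a share ran from -2.10 to 3.53 percentage points, negative without FOXA2H-KO replicate 1, and that in the Serpina1c share from -0.007 to 0.239, negative without FOXA2f/f replicate 1. The Serpina1d share differed by -8.32 points when taken from FPKM, against -5.57 from counts. In each case fewer libraries or another gene length enter, and no other cause was tested.

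Libraries with the same number did not deviate together (correlations -0.069, 0.026 and -0.226). With 3 libraries a group, these correlations cannot tell whether the numbers pair the libraries. With the replicate block the log2 fold changes were 1.19 for Serpina1e (edgeR unadjusted p = 0.0549, adjusted p = 1.0) and 0.16 for the sum, and no call changed among the paralogs. Voom with quality weights gave Serpina1c as well as Serpina1e an unadjusted p under 0.05. Over all genes, calls numbered 0 to 6 in these settings apart from DESeq2, which called 75. With 3 libraries a group and a common biological coefficient of variation of 25.3%, replicates rather than depth limit these comparisons: each paralog had at least 2730 counts in every library. The 9 to 15 alternatives run for each result are those named under processing.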
